A study of Mus musculus with 11 samples.

Results

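The inhibitors of cyclin-dependent kinases and menin form a set of 8 genes, *Cdkn1a*, *Cdkn1b*, *Cdkn1c*, *Cdkn2a*, *Cdkn2b*, *Cdkn2c*, *Cdkn2d* and *Men1*. They were taken by symbol from the 55536 genes of each count table, and all 8 were found and passed the filter on low counts in every comparison. The islets came from wild-type C57BL/6J female mice, which entered the study at 9 weeks of age. Multipara mice went through 3 pregnancies and were studied 3 weeks after the last delivery, and virgin mice of the same age were the controls. RNA was measured in 11 bulk libraries, of which 3 were labelled virgin with S-961, 4 multipara with S-961, 2 virgin without treatment and 2 multipara without treatment. The peptide S-961 is an antagonist of the insulin receptor and so raises the demand for insulin. The study counts the S-961 libraries as mice, but the labels tie no library to a mouse, and nothing used here says how many mice the untreated libraries came from. The p-values therefore measure the spread between these libraries, which may be technical.

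Cyclin-dependent kinase inhibitors bind the kinases that carry a cell from G1 into S phase. The INK4 proteins (p16 from *Cdkn2a*, p15 from *Cdkn2b*, p18 from *Cdkn2c* and p19 from *Cdkn2d*) bind CDK4 and CDK6 and keep them from the D cyclins. The CIP/KIP proteins (p21 from *Cdkn1a*, p27 from *Cdkn1b* and p57 from *Cdkn1c*) act on cyclin complexes more broadly, CDK2 included. Menin, the product of *Men1*, is a scaffold of histone H3 lysine methyltransferase complexes and is known to keep *Cdkn1b* and *Cdkn2c* transcribed in islets, where its loss leads to endocrine tumours. In mouse β cells p16 is known to accumulate with age, and menin is known to fall during pregnancy.

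Total counts ran from 22028507 to 32234146 per library. Insulin transcripts (*Ins1* and *Ins2*) made up 35.3% to 41.4% of all counts in untreated libraries and 13.2% to 20.7% with S-961, and the labelled tissue was present in all libraries by its endocrine markers. The library labelled multipara S-961 4 lay with virgin S-961 1 and 2 in its counts, and with all virgin S-961 libraries in proliferation markers. Its counts differed from those of virgin S-961 1, 2 and 3 by a chi-square per gene of 9.19, 11.1 and 41.8. From those of multipara S-961 1, 2 and 3 they differed by 53.4, 73.7 and 88.0. Virgin S-961 1 and 2 differed by 8.9, but virgin S-961 3 differed from them by 53.85 and 59.1. Multipara S-961 1 differed from virgin S-961 1, 2 and 3 by 47.5, 42.6 and 114. The measure therefore did not separate the 2 labelled groups. Levels are given as counts per 1000000 (CPM) of the effective library size, which is the library's count times its TMM normalization factor. They are not shares of all counts. The summed level of 8 proliferation markers was 427, 449 and 194 CPM in multipara S-961 1, 2 and 3. It was 61.5 CPM in multipara S-961 4 and 60.8 to 75.2 CPM in virgin S-961. The stromal markers of multipara S-961 4, at 129 CPM, were above the 64.9 to 69.6 CPM of virgin S-961, as in the other multipara S-961 libraries. In the untreated libraries the proliferation sum was 162 CPM in multipara 1 and 51.3 to 64.0 CPM in the others. Multipara untreated 1 also stood apart in 10 immune markers, with a sum of 2172 CPM against 478 to 493 CPM in the other untreated libraries. All groups were kept as labelled, so the directions below are those of the labels. Under S-961 the study reports *Cdk1*, *Cdk2* and *Cdkn2d* as downregulated in multipara islets and, by staining, fewer Ki-67-positive β cells. The fits by these labels give the other direction for these genes and for *Mki67*. Whether any labels are exchanged was not tested. Values without multipara S-961 4 or multipara untreated 1 are given for some, but not all, of the calls that they change. In bulk samples, fewer cells of a type and less RNA per cell cannot be told apart.

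*Cdkn2a* and *Cdkn2b* are neighbours on the minus strand of chromosome 4 (GRCm38), and their start sites are shown here because the locus makes 3 products from 2 genes. *Cdkn2a* spans 89274471 to 89294653 and *Cdkn2b* 89306299 to 89311039, with 16386 bases between the start of *Cdkn2b* and the upstream start of *Cdkn2a*. *Cdkn2a* has 2 annotated transcripts with first exons of their own, at 89281986 to 89282192 for p16Ink4a and at 89294334 to 89294653 for p19Arf, a product known to act on the p53 regulator MDM2, and both join the same second exon at 89276645 to 89276985. The gene-level count therefore adds both transcripts, and the values of *Cdkn2a* below cannot be assigned to p16Ink4a or p19Arf. The bases of the RefSeq window before each start are printed 5′ to 3′ on the coding strand, with matches to the searched motifs in capitals. They are cut before the GENCODE start where it lies upstream of the RefSeq start. This is so for p19Arf (89294653 against 89294619) and *Cdkn2b* (89311039 against 89311032). Motif distances below are from the RefSeq start.
*Cdkn2a*, p16Ink4a start, chr4:89282193-89282442: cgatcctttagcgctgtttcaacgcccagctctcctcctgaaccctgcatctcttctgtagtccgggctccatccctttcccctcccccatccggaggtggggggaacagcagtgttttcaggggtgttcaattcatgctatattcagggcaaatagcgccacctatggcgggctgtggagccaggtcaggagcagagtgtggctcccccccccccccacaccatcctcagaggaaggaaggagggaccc
*Cdkn2a*, p19Arf start, chr4:89294654-89294869: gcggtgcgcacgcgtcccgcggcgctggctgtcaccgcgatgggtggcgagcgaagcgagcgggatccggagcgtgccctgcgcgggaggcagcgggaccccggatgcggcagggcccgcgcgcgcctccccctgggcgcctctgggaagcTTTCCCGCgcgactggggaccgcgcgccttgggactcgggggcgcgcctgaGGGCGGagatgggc
*Cdkn2b*, chr4:89311040-89311282: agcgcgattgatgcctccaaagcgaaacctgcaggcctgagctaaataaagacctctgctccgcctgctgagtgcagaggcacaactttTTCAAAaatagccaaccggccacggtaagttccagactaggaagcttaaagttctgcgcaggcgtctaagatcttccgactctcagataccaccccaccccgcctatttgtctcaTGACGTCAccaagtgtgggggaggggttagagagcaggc

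The motifs were searched on both strands in the full RefSeq windows of 300 bases, which were on record for 7 of the 8 genes (12 windows, GRCm38.p6). The p19Arf window held the E2F motif TTTCCCGC, 99 bases before the RefSeq start. An E2F match (TTTCCCGC or TTTGGCGC) was present in 1.56% of all 32851 windows. The *Cdkn2b* window held the cyclic AMP response element TGACGTCA 46 bases before the RefSeq start, a match found in 1.79% of all windows. It also held the cell cycle homology region TTTGAA on the other strand, where it reads TTCAAA, and TTTGAA or TTTAAA was present in 27.6% of all windows. The *Cdkn1b* window held TTTAAA. The GC box GGGCGG, present in 35.7% of all windows, had 5 matches in the *Cdkn2d* window, 4 in 1 of the 2 *Cdkn2c* windows and none in the other. It had 3 matches in the p19Arf window and 2 in 1 of the *Cdkn1a* windows. The windows of p16Ink4a, *Cdkn1b* and *Cdkn2b* and each *Men1* window held 1. No window of these genes held the FOXO motif TGTTTAC, which was in 3.65% of all windows. A match is a description of the letters in the window and not a measured binding site. The other genes lie elsewhere in GRCm38, with *Cdkn2c* further along chromosome 4 (109660876 to 109667189, minus strand) and *Cdkn2d* on chromosome 9 (21288410 to 21291407, minus strand). *Cdkn1a* is on chromosome 17 (29090976 to 29100727), *Cdkn1b* on chromosome 6 (134920401 to 134925513) and *Men1* on chromosome 19 (6334979 to 6340891), all on the plus strand, and *Cdkn1c* is on the minus strand of chromosome 7 (143458339 to 143461050).

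Read per kilobase of exon, the CIP/KIP genes *Cdkn1a* and *Cdkn1b* and the menin gene were the most abundant of the 8. The median level over the 11 libraries was 16.3 CPM per kb for *Cdkn1a*, 13.8 CPM per kb for *Cdkn1b* and 13.8 CPM per kb for *Men1*. The INK4 genes followed, with 8.19 CPM per kb for *Cdkn2d*, 4.94 CPM per kb for *Cdkn2c* and 2.93 CPM per kb for *Cdkn2b*. *Cdkn1c* at 0.804 CPM per kb and *Cdkn2a* at 0.718 CPM per kb were at the bottom. The ranges over the libraries of neighbours in this order overlapped at every step except between *Cdkn2b*, which did not go below 2.08 CPM per kb, and *Cdkn1c*, which did not exceed 1.23 CPM per kb. In the untreated libraries the order within the INK4 family was different, since *Cdkn2b* had 8.48 ± 0.47 CPM per kb in virgin and 10.4 ± 0.71 CPM per kb in multipara islets (SD, n = 2 each), above *Cdkn2c* with 3.16 ± 0.08 and 4.04 ± 0.21 CPM per kb. These levels depend on the length used. With the longest transcript in place of the exon union, *Cdkn1a* rose from 16.9 to 28.9 CPM per kb in virgin untreated islets.

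**Figure D1:**
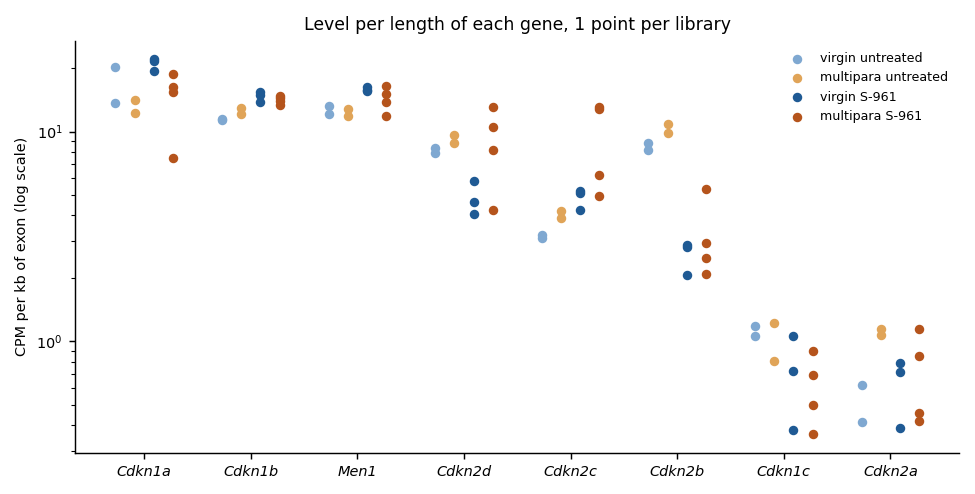
CPM per kilobase of exon on a log axis for the 8 genes, 1 point per library, coloured by group. *Cdkn1a*, *Cdkn1b* and *Men1* lie between 7.45 and 22.1 CPM per kb, whereas *Cdkn1c* and *Cdkn2a* lie between 0.362 and 1.23 CPM per kb.

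On the CPM scale, without the length, the genes differed in how much they varied between libraries. *Cdkn2b* had the widest range, with its highest library at 5.23 times its lowest, and *Cdkn1b* and *Men1* the narrowest, at 1.35 and 1.39 times.

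**Figure D2:**
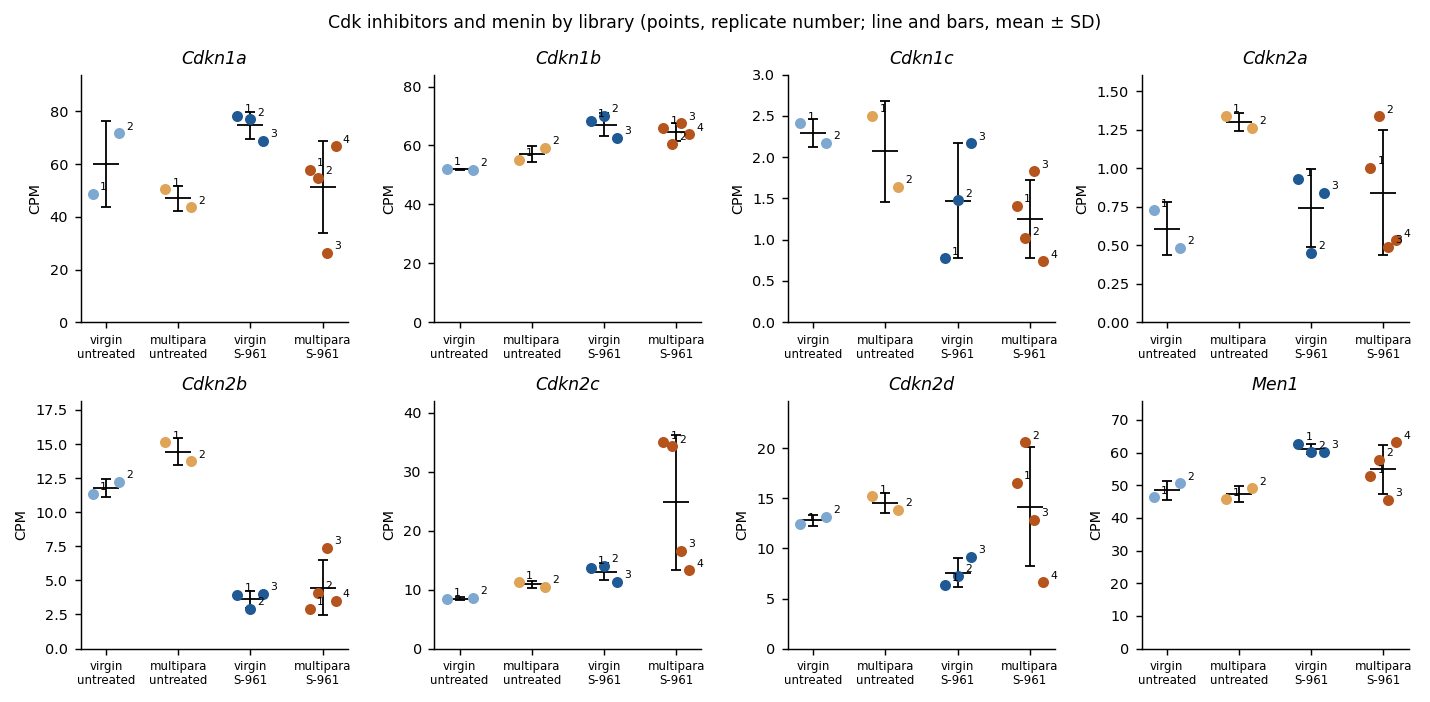
CPM of each gene by group, with the replicate number beside each point and the mean ± SD as line and bars. All 7 S-961 libraries lie below all 4 untreated libraries for *Cdkn2b*, and multipara S-961 1 and 2 stand above all other libraries for *Cdkn2c*.

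The comparison of multipara with virgin islets under S-961 sets the islets side by side at a raised demand for insulin. Whether the response to S-961 itself differed with parity is the interaction given further on. No gene of the set passed an adjusted p-value of 0.05 in this comparison. Over all 16784 genes tested, 0 (0%) were called by edgeR, and 9.71% had an unadjusted p-value under 0.05. Of the 8 genes, *Cdkn2c* and *Cdkn2d* were under 0.05 before adjustment. DESeq2 called 369 genes and none of the 8.

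*Cdkn2c* encodes p18, the INK4 inhibitor that menin is known to maintain. Its level was 13.7, 14.1 and 11.4 CPM in virgin S-961 1, 2 and 3, and 35.0, 34.3, 16.6 and 13.3 CPM in multipara S-961 1, 2, 3 and 4. Multipara libraries 1 and 2 were far above the virgin range, library 3 just above it and library 4 within it. The log2 fold change was 0.94 ± 0.34 (SE), with an adjusted p-value of 0.402. Without multipara S-961 4 it was 1.15 ± 0.27 with an adjusted p-value of 0.0658.

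*Cdkn2d* encodes p19, the INK4 inhibitor whose transcript is known to rise in S phase. Its level was 6.37, 7.24 and 9.19 CPM in virgin S-961 1, 2 and 3, and 16.5, 20.6, 12.9 and 6.62 CPM in multipara S-961 1, 2, 3 and 4. The first 3 multipara libraries exceeded all virgin libraries, and the last was within the virgin range. The study reports the other direction, with *Cdkn2d* downregulated in multipara islets under S-961. The log2 fold change was 0.91 ± 0.35, with an adjusted p-value of 0.440. Without multipara S-961 4 the log2 fold change was 1.15 ± 0.22 with an adjusted p-value of 0.0327, so that *Cdkn2d* was called, in a fit that called 3.16% of all genes. That library was low in *Cdkn2d* as well as in proliferation markers, so leaving it out favours this call.

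The library-by-library order of these INK4 genes can be set beside that of *Mki67*, which encodes the proliferation antigen Ki-67. *Mki67* had 93.9, 65.5, 43.5 and 3.93 CPM in multipara S-961 1, 2, 3 and 4, and 3.43, 13.9 and 3.04 CPM in virgin S-961 1, 2 and 3. Its log2 fold change was 2.95 ± 0.94 (adjusted p = 0.362). Without multipara S-961 4, a choice made after seeing the data, it was 3.34 ± 0.59 (adjusted p = 0.0238). The order of the 4 multipara libraries was the same for *Mki67* and *Cdkn2c*, and was 2, 1, 3 and 4 from high to low for *Cdkn2d*. Cyclins E and A and their kinases, on which CIP/KIP inhibitors act, also had higher fitted levels in the multipara group in 5 of 5 tested genes. The median log2 fold change was 1.41 with 0 called, against a median of 0.00 over all genes. The study reports *Cdk1* and *Cdk2* of this list as downregulated in multipara islets under S-961. The summed level of the list was 98.5, 110 and 46.9 CPM in multipara S-961 1, 2 and 3, but 19 CPM in multipara S-961 4, within the 18.4 to 22.1 CPM of virgin S-961. Without that library 3 of the 5 genes were called, *Cdk1*, *Ccna2* and *Cdk2*, against 2.69% of all genes called higher. *Cdk1* is on both this list and that of the proliferation markers. The D cyclins and their kinases, the targets of INK4 inhibitors, had a median of 0.00, with 3 of 5 higher and 0 called. Other cell markers moved with parity as well. Stromal markers summed to 129 to 286 CPM in multipara S-961 and 64.9 to 69.6 CPM in virgin S-961, with 7 of 7 higher and 0 called. Duct markers summed to 301 to 400 CPM and 282 to 298 CPM, with 7 of 7 higher, and acinar markers to 4567 to 12340 CPM and 1858 to 6966 CPM, with 11 of 12 higher, and 0 were called in either list. In the fit that left out multipara S-961 4, 7 of 8 proliferation markers, 5 of 7 stromal and 2 of 7 duct markers were called higher. That library was singled out in part by its low proliferation markers. Leaving it out therefore favours calls of these markers and of genes that follow them, and such calls are no separate evidence. The part of proliferation or of these cell types in the INK4 values was not tested.

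**Figure D3:**
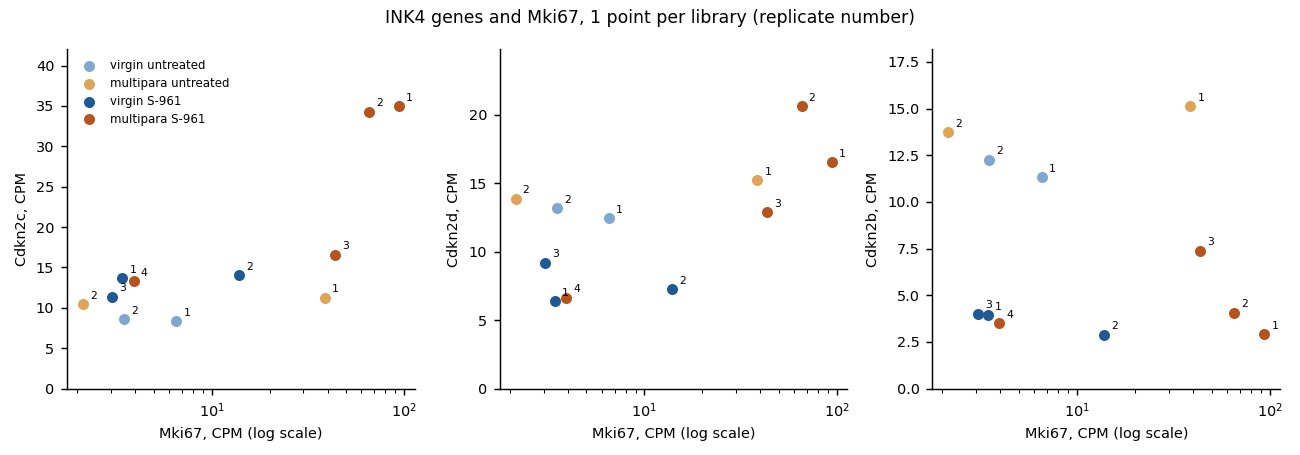
CPM of *Cdkn2c*, *Cdkn2d* and *Cdkn2b* against CPM of *Mki67* on a log axis, 1 point per library with its replicate number, coloured by group. Multipara S-961 1 and 2 combine the highest *Mki67* with the highest *Cdkn2c* and *Cdkn2d*, multipara S-961 4 lies among the virgin S-961 libraries, and multipara untreated 1 has 38.6 CPM of *Mki67* with 11.3 CPM of *Cdkn2c*.

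*Cdkn1a*, the p21 gene and a standard target of p53, was the one gene of the set whose libraries did not overlap between the groups under S-961. It had 78.3, 77.0 and 68.8 CPM in virgin S-961 1, 2 and 3, and 57.9, 54.8, 26.5 and 66.8 CPM in multipara S-961 1, 2, 3 and 4. All multipara libraries were below all virgin libraries, and multipara S-961 3, the library with the highest stromal sum (286 CPM), was far below the rest. The log2 fold change was -0.53 ± 0.26 (adjusted p = 0.556), and -0.31 ± 0.11 (adjusted p = 0.531) without multipara S-961 3. Over all genes, 3.64% had multipara libraries all below and 5.23% all above the virgin libraries. The p53 axis, a list of 12 genes of p53 and its targets and regulators, had a median log2 fold change of 0.05 with 7 higher and 5 lower and 0 called.

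The other genes of the set differed little with parity under S-961. *Cdkn1b*, the p27 gene, had 62.7 to 70.1 CPM in virgin and 60.6 to 67.5 CPM in multipara libraries, a log2 fold change of -0.04 ± 0.10 (adjusted p = 0.925). *Men1* had 60.1 to 62.7 CPM in virgin and 45.6 to 63.2 CPM in multipara libraries, a log2 fold change of -0.14 ± 0.12 (adjusted p = 0.753). *Cdkn2b* had 2.90 to 4.01 CPM and 2.93 to 7.39 CPM, a log2 fold change of 0.33 ± 0.34 (adjusted p = 0.798), with multipara S-961 3 far above and multipara S-961 2, at 4.07 CPM, just above the virgin range. *Cdkn2a* had a log2 fold change of 0.20 ± 0.48 (adjusted p = 0.918) and *Cdkn1c* one of -0.22 ± 0.45 (adjusted p = 0.902). Both had overlapping groups.

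Without treatment the comparison of multipara with virgin islets asks what the pregnancies left behind. No gene of the set was called. Over the 15812 genes tested edgeR called 0 (0%), with 5.62% under an unadjusted p-value of 0.05, and DESeq2 called 56 and none of the 8. All 4 INK4 genes and *Cdkn1b* were higher in both multipara libraries than in both virgin libraries, which makes 5 of 8 genes, and 0 of 8 lay below. Over all genes, 17.3% lay above and 18.8% below in this way.

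*Cdkn2a* had 0.73 and 0.48 CPM in virgin untreated 1 and 2 and 1.34 and 1.26 CPM in multipara untreated 1 and 2. These values rest on 19, 12, 30 and 20 counts. The multipara values were higher than both virgin values, but the 95% exact Poisson intervals were 0.438 to 1.14 and 0.250 to 0.845 CPM in virgin and 0.904 to 1.91 and 0.770 to 1.95 CPM in multipara islets. These intervals cover counting error only. The log2 fold change was 1.10 ± 0.38, a 2.15-fold difference, with an unadjusted p-value of 0.0373 and an adjusted one of 0.719 by edgeR. It was 1.03 ± 0.57 (adjusted p = 0.615) without multipara untreated 1 and 0.84 to 1.42 when each library was left out in turn.

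With S-961 the *Cdkn2a* levels were 0.93, 0.45 and 0.84 CPM in virgin 1, 2 and 3 and 1.0, 1.34, 0.49 and 0.53 CPM in multipara 1, 2, 3 and 4. Multipara S-961 1 and 2 were above the virgin range and 3 and 4 within it. The difference between the parity effects with and without S-961 was -0.92 ± 0.74 on the log2 scale (adjusted p = 0.870). Polycomb proteins silence the *Cdkn2a* locus, and of 9 of their genes 7 were higher, 2 lower and 0 called in untreated multipara islets (median log2 fold change 0.07).

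*Cdkn2b* had 11.3 and 12.3 CPM in untreated virgin and 15.1 and 13.7 CPM in untreated multipara libraries, a log2 fold change of 0.30 ± 0.14 (adjusted p = 0.719). *Cdkn2c* had 8.34 and 8.63 CPM against 11.3 and 10.5 CPM, a log2 fold change of 0.36 ± 0.15 (adjusted p = 0.719). *Cdkn2d* had 12.4 and 13.2 CPM against 15.2 and 13.9 CPM, a log2 fold change of 0.19 ± 0.13 (adjusted p = 0.738). For each of these 3 genes the higher multipara library was untreated 1, which carried the high immune and proliferation markers. Without that library the log2 fold changes were 0.20 ± 0.14, 0.28 ± 0.17 and 0.09 ± 0.13. The part of immune cells in these values was not tested.

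In the CIP/KIP genes and *Men1* the untreated differences were small or went with wide spread. *Cdkn1b* had 52.0 and 51.8 CPM in virgin and 55.2 and 59.1 CPM in multipara libraries, a log2 fold change of 0.14 ± 0.07 (adjusted p = 0.719). *Men1* had 46.3 and 50.6 CPM against 45.7 and 49.0 CPM, a log2 fold change of -0.03 ± 0.08 (adjusted p = 0.936). *Cdkn1a* had 48.7 and 71.7 CPM against 50.4 and 43.7 CPM, a log2 fold change of -0.35 ± 0.22 (adjusted p = 0.726), and *Cdkn1c* had 2.41 and 2.18 CPM against 2.50 and 1.64 CPM, one of -0.13 ± 0.33 (adjusted p = 0.921).

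Whether parity acted differently with and without S-961 was tested as an interaction over all 11 libraries. Of 17996 genes, 0 (0%) were called by edgeR and 81 by DESeq2, and 6.55% had an unadjusted p-value under 0.05. None of the 8 genes was called by either tool or was under 0.05 before adjustment. The estimates were 0.71 ± 0.50 for *Cdkn2d*, 0.57 ± 0.51 for *Cdkn2c* and 0.02 ± 0.47 for *Cdkn2b*. *Cdkn1b* had -0.20 ± 0.14, *Cdkn1a* -0.18 ± 0.43, *Men1* -0.12 ± 0.19 and *Cdkn1c* -0.09 ± 0.67. Adjusted p-values for all 7 were between 0.845 and 1. Without multipara S-961 4 the estimates were 0.95 ± 0.31 (adjusted p = 0.274) for *Cdkn2d* and 0.78 ± 0.40 (adjusted p = 0.528) for *Cdkn2c*.

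**Figure D4:**
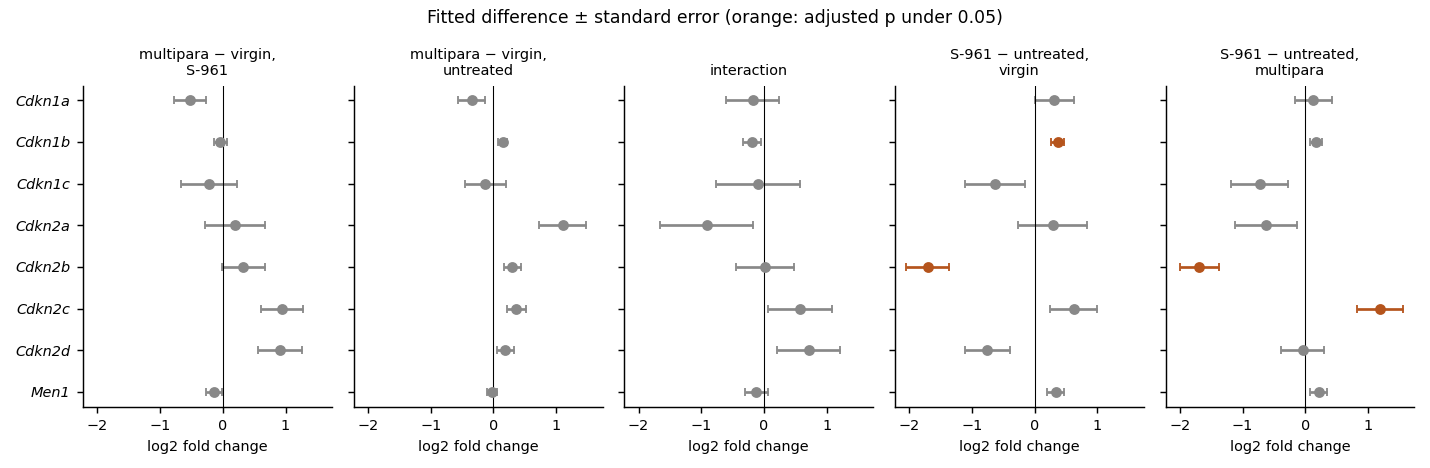
Fitted log2 fold change ± SE of each gene in the 5 comparisons, with adjusted p-values under 0.05 in orange. *Cdkn2b* is orange with S-961 in both virgin (-1.71) and multipara islets (-1.69), *Cdkn1b* in virgin islets (0.37) and *Cdkn2c* in multipara islets (1.19), and no gene is orange in the parity comparisons or the interaction.

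S-961 against no treatment gave the largest differences of the set. In virgin islets 1 of the 8 genes rose and 1 fell, against 18.8% of all genes that rose and 17.6% that fell. In multipara islets 1 rose and 1 fell, against 18.2% and 19.4%. Neither share of the 8 genes was above that of all genes. In virgin islets 3 of the 8 genes had all S-961 libraries above and 3 had all below the untreated ones, against 32.8% and 35.5% of all genes. In multipara islets these counts were 2 and 1, against 24.5% and 24.5%. Both comparisons come from 1 fit over all libraries. The labels do not say whether treated and untreated libraries were prepared together. The same shares of all genes are the background for the counts of list genes called with S-961.

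*Cdkn2b*, the p15 gene and a known target of TGF-β signalling, fell in both, on 96 to 339 counts a library. It had 11.3 and 12.3 CPM in virgin untreated islets and 3.93, 2.90 and 4.01 CPM in virgin S-961 1, 2 and 3. In multipara islets it had 15.1 and 13.7 CPM without treatment and 2.93, 4.07, 7.39 and 3.49 CPM in multipara S-961 1, 2, 3 and 4. Every S-961 library was below every untreated library, and multipara S-961 3 was the nearest to them. The log2 fold change was -1.71 ± 0.34 in virgin (3.26-fold lower, adjusted p = 0.00322) and -1.69 ± 0.31 in multipara islets (3.23-fold lower, adjusted p = 0.00221). Both calls held in 16 of 16 alternatives, with adjusted p-values up to 0.0305 and 0.0191. The neighbouring *Cdkn2a* was not called in either, with 0.29 ± 0.55 (adjusted p = 0.716) and -0.63 ± 0.50 (adjusted p = 0.337). Of 3 tested neighbours of the locus, *Elavl2* fell in virgin islets (-1.24 ± 0.42, adjusted p = 0.0379) and none was called in multipara islets. *Elavl2* was low, at 1.65 and 2.58 CPM in virgin untreated and 0.785 to 0.989 CPM in virgin S-961 libraries. The others were not lower in virgin islets, with 0.25 ± 0.20 (adjusted p = 0.371) for *Mtap* and 0.92 ± 0.93 (adjusted p = 0.470) for *Dmrta1*.

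*Cdkn2c* was higher with S-961. It had 8.34 and 8.63 CPM in virgin untreated and 11.4 to 14.1 CPM in virgin S-961 libraries, with no overlap, a log2 fold change of 0.62 ± 0.38 and an adjusted p-value of 0.224. In multipara islets it rose from 11.3 and 10.5 CPM to between 13.3 and 35.0 CPM, again with no overlap, a log2 fold change of 1.19 ± 0.37 (2.28-fold, adjusted p = 0.0269). The call in multipara islets was kept in 12 of 16 alternatives. It was lost by limma-voom (adjusted p = 0.0977), without multipara S-961 1 (0.0600) and without multipara untreated 1 (0.115) or 2 (0.128). Without multipara S-961 4 the log2 fold change was 1.40 ± 0.29 (adjusted p = 0.00610).

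*Cdkn1b* rose with S-961 in virgin islets, from 52.0 and 51.8 CPM to 68.3, 70.1 and 62.7 CPM, with no overlap. The log2 fold change was 0.37 ± 0.11 (1.29-fold, adjusted p = 0.0190). The call was kept in 10 of 16 alternatives. It was lost in 6, of which 5 were the fits with no filter on low counts (adjusted p = 0.0548) and without virgin S-961 1 (0.0578) or 2 (0.0659) or virgin untreated 1 (0.111) or 2 (0.125). In multipara islets *Cdkn1b* had 55.2 and 59.1 CPM without and 60.6 to 67.5 CPM with S-961, a log2 fold change of 0.17 ± 0.10 (adjusted p = 0.192). The p27 protein is removed by ubiquitin ligases, and of 7 genes for its turnover *Usp19* rose and *Skp1a* fell in virgin islets. In multipara islets *Skp2*, the substrate receptor for p27, rose by a log2 fold change of 1.87 ± 0.41 (adjusted p = 0.00514) and *Usp19* rose, while *Skp1a* and *Cul1*, both ligase subunits, fell (*Cul1* was not called without multipara untreated 1, adjusted p = 0.0737). *Skp2* had a log2 fold change of 0.94 ± 0.41 (adjusted p = 0.0913) in virgin islets.

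*Cdkn2d* had 12.4 and 13.2 CPM in virgin untreated and 6.37, 7.24 and 9.19 CPM in virgin S-961 libraries. All 3 treated libraries were lower, and the log2 fold change was -0.75 ± 0.36 (adjusted p = 0.126). In multipara islets it had 15.2 and 13.9 CPM without and 6.62 to 20.6 CPM with S-961, a log2 fold change of -0.04 ± 0.34 (adjusted p = 0.938), and the groups overlapped. Without multipara S-961 4 the fit called the virgin difference (-0.75 ± 0.22, adjusted p = 0.0212) and the multipara estimate was 0.20 ± 0.22 (adjusted p = 0.500). That virgin call was the only one in 16 alternatives. The virgin libraries and estimate were the same in it, and only the SE fell, since the fit takes the spread from all groups. The call is therefore no separate evidence for a fall in virgin islets.

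*Men1* had 46.3 and 50.6 CPM in virgin untreated and 60.1 to 62.7 CPM in virgin S-961 libraries, with no overlap, a log2 fold change of 0.33 ± 0.14 and an adjusted p-value of 0.0812. In multipara islets the log2 fold change was 0.21 ± 0.13 (adjusted p = 0.224), with multipara S-961 3 at 45.6 CPM as low as the untreated libraries. Without that library both passed, at 0.33 ± 0.10 (adjusted p = 0.0249) in virgin and 0.29 ± 0.10 (adjusted p = 0.0444) in multipara islets. In each comparison this was the only call in 16 alternatives. The virgin estimate did not change, and only its SE fell, since the fit takes the spread from all groups. The library left out was the lowest with S-961 in *Men1*, which favours the multipara call. Of 9 partner genes of menin, *Jund*, *Hcfc1* and *Rbbp5* rose and *Dpy30* fell in both. *Jund*, the AP-1 factor that menin binds, had the largest of these changes, a log2 fold change of 1.63 ± 0.25 (adjusted p = 0.000881) in virgin and 2.31 ± 0.25 (adjusted p = 0.000167) in multipara islets.

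*Cdkn1a* had 0.31 ± 0.31 (adjusted p = 0.466) and 0.13 ± 0.30 (adjusted p = 0.754) with S-961 in virgin and multipara islets, with overlapping groups. Of the 12 genes of the p53 axis, 4 rose and 2 fell in virgin islets and 3 rose and 2 fell in multipara islets, against 18.8% and 17.6% of all genes in virgin and 18.2% and 19.4% in multipara islets. In both, *Mdm2* and *Mdm4* were among those that rose, and *Sesn2* and *Bax* were those that fell. *Mdm2* and *Mdm4* encode the inhibitors of p53, and *Bax* its target in cell death. Without multipara untreated 1 the adjusted p-value of *Mdm2* in multipara islets was 0.0739. *Cdkn1c*, the imprinted p57 gene, had 1.64 to 2.50 CPM untreated and 0.74 to 2.17 CPM with S-961, and log2 fold changes of -0.64 ± 0.48 (adjusted p = 0.326) and -0.73 ± 0.45 (adjusted p = 0.225). Of 9 tested genes of its imprinted domain, *Kcnq1ot1*, the RNA that silences the paternal copy, rose in virgin islets by 1.19 ± 0.30 on the log2 scale (adjusted p = 0.0108), and *Cd81* fell. *Kcnq1ot1* runs antisense to *Kcnq1*, and the sources used here do not say that counting used the strand. In multipara islets *Osbpl5* and *Tspan32* were called, and neither call held without multipara untreated 1. *Osbpl5* had a log2 fold change of 0.51 ± 0.16 (adjusted p = 0.0317), and 0.46 ± 0.22 (adjusted p = 0.180) without it. *Tspan32* had 8.17 CPM in multipara untreated 1, 0.378 CPM in multipara untreated 2 and 0.0291 to 0.65 CPM in multipara S-961. Its log2 fold change was -3.23 ± 0.94 (adjusted p = 0.0207), and 0.26 ± 1.14 (adjusted p = 0.892) without that library.

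The kinases and cyclins that these inhibitors act on moved as follows with S-961. Of 5 genes for D cyclins and their kinases, *Ccnd1* rose in virgin (0.93 ± 0.25, adjusted p = 0.0135) and multipara islets (1.03 ± 0.24, adjusted p = 0.00683). *Cdk4* fell in multipara islets (-0.43 ± 0.14, adjusted p = 0.0391) and had -0.36 ± 0.15 (adjusted p = 0.0897) in virgin islets. Without multipara untreated 1 the multipara values had adjusted p-values of 0.0608 for *Ccnd1* and 0.132 for *Cdk4*, and *Cdk4* had 0.0767 without multipara S-961 4. *Ccnd2*, a D cyclin on which β cells are known to depend, had 430 to 706 CPM in the 11 libraries and was not called. Of 5 tested genes for cyclins E and A and their kinases, *Ccne2* rose in virgin islets (1.42 ± 0.40, adjusted p = 0.0183). In multipara islets *Ccne2*, *Ccne1* and *Cdk2* rose. Of 9 Polycomb genes, *Bmi1* and *Suz12* rose in both. The proliferation markers had 0 of 8 called in either. With multipara S-961 4 left out, 5 of these 8 and 5 of the 5 genes for cyclins E and A and their kinases rose in multipara islets, in a fit in which 18% of all genes rose. Leaving out that library, singled out in part by its low proliferation markers, favours these calls.

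Several cell markers moved with S-961 as well. The summed level of 12 acinar markers was 120 to 188 CPM in the untreated and 1858 to 12340 CPM in the S-961 libraries, and 12 of 12 rose in both virgin and multipara islets. The summed islet endocrine markers were at 488600 to 657600 CPM untreated and 142800 to 243500 CPM with S-961. These sums are not shares of all counts, since TMM factors were 0.72 to 0.845 untreated and 1.07 to 1.3 with S-961. In shares of counts the contrast is smaller. Immune markers summed to 178 to 343 CPM with S-961, below all untreated libraries, and immediate early and dissociation genes to 2797 to 4923 CPM against 1119 to 1809 CPM. Sums of endothelial markers were 414 to 518 CPM with S-961 and 537 to 628 CPM without. Duct markers summed to 282 to 400 CPM with S-961 and 342 to 435 CPM without. The part of cell composition in the S-961 differences of *Cdkn2b*, *Cdkn2c* and *Cdkn1b* was not tested.

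**Figure D5:**
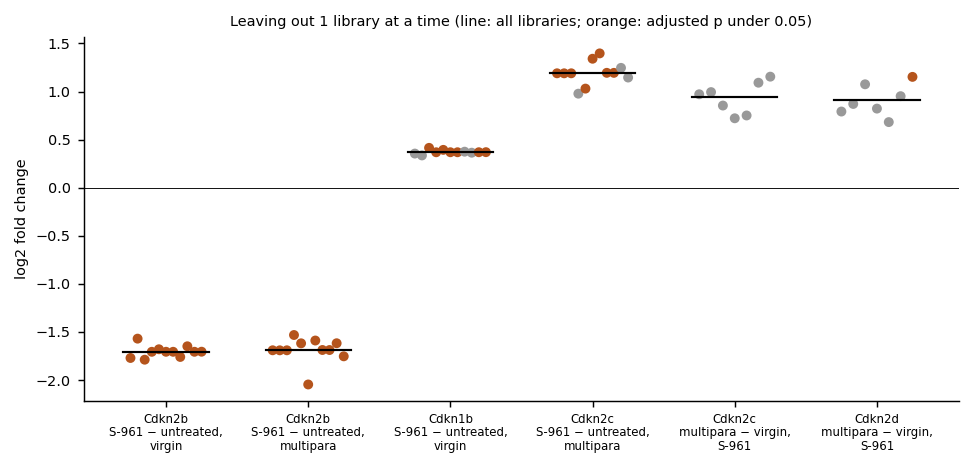
Log2 fold change of *Cdkn2b*, *Cdkn1b*, *Cdkn2c* and *Cdkn2d* in the comparisons named below each column, each point leaving out 1 library, with the value from all libraries as a line and adjusted p-values under 0.05 in orange. The *Cdkn2b* points stay between -2.05 and -1.53 and are all orange, and 1 point of *Cdkn2d* under S-961 is orange.

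For 6 of the 8 genes with a mean of at least 2 log2 CPM, the 3 genes most like it over the 11 libraries were sought among 11283 others, by the Pearson correlation of log2 CPM. The libraries share the treatment difference, so the values describe these libraries only. *Cdkn2c* was closest to *Wdhd1* (r = 0.97), *Sephs1* (0.96) and *Pkmyt1* (0.96), and *Cdkn2d* to *Haus1* (0.98), *Rfc5* (0.96) and *Orc6* (0.95). *Wdhd1*, *Rfc5* and *Orc6* encode DNA replication proteins, *Haus1* a spindle protein and *Pkmyt1* a kinase that holds CDK1 inactive. *Cdkn2b* was closest to *Pgap2*, *Trpm4* and *Grn* (0.99 each). *Cdkn1a* was closest to *Tle1* (0.96), *Tbc1d20* (0.93) and *Grwd1* (0.92), *Cdkn1b* to *Zfp966* (0.98), *Cc2d2b* (0.97) and *Gtf3c2* (0.97), and *Men1* to *Tcf25* (0.98), *Ippk* (0.97) and *Klhdc8a* (0.97).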

How the data were processed

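Poly(A)-selected islet RNA was made into libraries with the TruSeq Stranded mRNA kit. The authors deposited 1 table of estimated counts per library (RSEM's expected counts), without normalization, and the submitters' processing notes name STAR, RSEM and GRCm38 (mm10) without versions. RSEM divides shared reads between genes, so values need not be whole, and between 4449 and 5162 per library were not. They were rounded to whole counts here. Samples were grouped by their labels.

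Tests used edgeR 4.0.16 in R 4.3.3 (TMM, filterByExpr with a minimum count of 10 and a minimum total of 15, quasi-likelihood F-test) with Benjamini-Hochberg adjustment over all genes tested and a threshold of 0.05. Parity was tested within a treatment on that treatment's libraries, and the interaction and S-961 effects on all 11 libraries. CPM used joint TMM factors, and log2 CPM a prior count of 2. Alternatives were DESeq2 1.42.0, its size factors, no filter, a replicate block, limma-voom (limma 3.58.1), the joint fit and leaving out each library. Fits of the list genes without multipara S-961 4 or multipara untreated 1 were added after seeing the data. Gene coordinates and lengths came from GENCODE M21. Fits were tested on simulated counts. The genes of the set, the gene lists, the markers and the motifs were chosen with earlier results of these data known. All genes of the set are named, and list genes only where called (at most 4 a list and comparison, smallest adjusted p first) or set beside them. Libraries held 22028507 to 32234146 counts, so depth limited mainly *Cdkn2a* and *Cdkn1c*, with 12 to 71 counts. Figures used Python 3.11.15, pandas 2.3.3 and matplotlib 3.10.9.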

Additional observations from a re-analysis of the deposited data

How the results depend on the processing

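Of 552 values of the 8 genes under another setting, 511 kept their direction and their side of the threshold, 10 lost the threshold, 5 gained it and 26 reversed. The cause was not tested in any. Depth limits *Cdkn2a* and *Cdkn1c*, which rest on 12 to 71 counts a library. Leaving out 1 library of an untreated group leaves 1 there, which is assumed to vary like the other groups.

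For multipara against virgin with S-961, 369 genes were called by DESeq2, 342 with the replicate block and 0 to 525 without 1 library (525 without multipara S-961 4, 1 without virgin S-961 3), against 0, and 0 to 1 of the 8 genes without 1 library. For untreated islets the counts were 56 by DESeq2, 3 with no filter and 0 to 1738 without 1 library (53 without multipara 1, 1738 without multipara 2), against 0. For the interaction they were 81 by DESeq2, 4 with no filter, 34 with the replicate block and 0 to 45 without 1 library (45 without multipara S-961 4, 32 without multipara untreated 2), against 0. For S-961 in virgin islets they were 3053 to 7466 without 1 library, against 6562, and in multipara islets 3618 to 7451, against 6768. Of the 8 genes, 1 to 3 were called without 1 library in each of these 2 comparisons, 1 with no filter in virgin and 1 by limma-voom in multipara islets, against 2.

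Reversed log2 fold changes, with their range when each library was left out in turn, were as follows. With S-961, parity gave -0.54 to 0.17 for *Cdkn1c* (0.0331 with the replicate block), -0.12 to 0.38 for *Cdkn2a* and -0.0392 to 0.48 for *Cdkn2b*. Without treatment it gave -0.51 to 0.14 for *Cdkn1c* and -0.0955 to 0.0354 for *Men1*. The interaction gave -0.34 to 0.17 for *Cdkn2b* (-0.0189 by DESeq2, -0.0194 with its size factors, -0.0575 by limma-voom), -0.40 to 0.29 for *Cdkn1c* (0.12 with the replicate block) and -0.48 to 0.0734 for *Cdkn1a*. S-961 in multipara islets gave -0.24 to 0.20 for *Cdkn2d* (0.017 with no filter, 0.20 with the replicate block) and -0.0227 to 0.35 for *Cdkn1a*.

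Deviations from the group mean were correlated between samples of the same replicate number. The correlations were 0.02 to 0.10 in the S-961 parity comparison, -0.09 to 0.11 in the S-961 comparisons and 0.27 in the untreated one. In a group of 2 libraries the 2 deviations mirror each other, so the 2 pairs of the untreated comparison are not separate values. The check therefore cannot decide whether the numbers mark pairs, and they were not taken as pairs. With the replicate block, S-961 in virgin islets gave *Cdkn1b* an adjusted p of 0.0655 and *Cdkn2c* a log2 fold change of 0.84 with an adjusted p of 0.0189.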
